A study of Homo sapiens with 6 samples.

Results

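The human interleukin genes were described by the chromatin accessibility of the sites around them, in K562 cells treated with a phorbol ester for 0, 6 or 72 h. Members were the protein-coding genes whose symbol begins with IL followed by a digit, which takes in cytokines, receptor chains and binding proteins. Of 20056 protein-coding genes in the RefSeq table for GRCh38, 85 met this rule. Each of the 181135 sites in the deposited count table that overlapped a member or lay within 20 kb of one was given to its nearest member. That gave 757 sites at 84 members, with none at IL17A, and 747 of them passed the filter on low counts and were tested. The nearest protein-coding gene was a member for 555 of the 747, which includes sites where a member and another gene were equally near. For the other 192 it was another gene.

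K562 is a human line established from a chronic myeloid leukaemia, and it can be driven towards erythroid or megakaryocyte features. All cells were wild type and of this single line. The groups were untreated cells (0 h) and cells given the phorbol ester PMA at 25 nM for 6 h or for 72 h, with 2 ATAC-seq libraries each. The medium was changed during the longest treatment and the 0 h cells were the only controls, so time in culture and PMA cannot be told apart. In ATAC-seq a transposase cuts open chromatin, and the reads over a site measure how open it is. These are bulk libraries, so more cells with an open site and a wider opening in each cell cannot be told apart, and no RNA or protein was measured here. Nothing in the labels says that the libraries of a group came from separate cultures, so p-values measure only the spread between these libraries.

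Library totals over the sites ran from 12258890 to 35548737 counts, lowest in replicate 1 at 6 h, and the square root of the common dispersion was 0.166. At the starts of the erythroid marker genes, where 5 of 6 genes had a site, the summed level was 193 to 194 CPM at 0 h, 126 to 142 at 6 h and 71.7 to 72.5 at 72 h, with KLF1 lacking a site. For megakaryocyte markers, where GP9 and PF4 lacked a site, it was 40.1 to 40.8, 24.7 to 24.8 and 23.5 to 24.9 CPM, and so no higher after PMA. T cell markers summed to 18.8 to 30.7 CPM over the 6 libraries with CD2 lacking a site. The monocyte list, with CD14 lacking a site, summed to 11.6 to 14.2 CPM at 0 h, 8.27 to 9.24 at 6 h and 4.25 to 5.05 at 72 h. These sums were taken at gene starts. Of all 13277 tested sites at a start in the series, 42.29% were lower at 6 h and 77.83% at 72 h. Whether the markers moved more or less than other starts was not tested. The part of these marker differences in the results below was not tested either.

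Interleukins are secreted signals of immune and blood cells. IL-1 family ligands act on receptors with an intracellular domain that recruits the adaptor MYD88, and the family includes antagonists that occupy a receptor without signalling. Most other interleukins bind paired chains that signal through Janus kinases and STAT factors, often with 1 private chain and a chain shared by several cytokines, such as gp130 (IL6ST) or the common gamma chain (IL2RG). PMA acts through protein kinase C, which leads to activity of AP-1 (dimers of JUN and FOS proteins) and NF-kB, while GATA and RUNX factors are regulators of the erythroid and megakaryocyte lineages.

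The sequences just before the starts of 7 members are shown because the sites there carried changes described below, or because they hold well-known motifs beside a site with little early change. RefSeq's promoter table for GRCh38.p14 held 69 of the 85 members. Each sequence is the 250 bases before the start in the direction of the gene. Capitals mark matches on either strand to TGANTCA, the motif of AP-1, to AGATAA for the GATA factors, to TGTGGT for the RUNX factors and to an NF-kB consensus. The matches did not overlap each other.
IL11, chr19:55370464-55370713 (- strand): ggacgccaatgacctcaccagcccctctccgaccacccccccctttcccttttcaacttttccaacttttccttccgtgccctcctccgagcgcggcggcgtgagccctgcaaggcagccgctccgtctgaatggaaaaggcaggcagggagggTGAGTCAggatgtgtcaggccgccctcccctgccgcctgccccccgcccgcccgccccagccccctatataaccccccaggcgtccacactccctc
IL1A, chr2:112784494-112784743 (- strand): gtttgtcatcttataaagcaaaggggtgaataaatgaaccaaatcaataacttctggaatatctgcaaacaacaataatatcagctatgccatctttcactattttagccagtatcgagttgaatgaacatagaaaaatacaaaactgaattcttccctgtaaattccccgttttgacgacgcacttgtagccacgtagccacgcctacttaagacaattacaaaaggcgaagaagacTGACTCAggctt
IL1RN, chr2:113117721-113117970 (+ strand): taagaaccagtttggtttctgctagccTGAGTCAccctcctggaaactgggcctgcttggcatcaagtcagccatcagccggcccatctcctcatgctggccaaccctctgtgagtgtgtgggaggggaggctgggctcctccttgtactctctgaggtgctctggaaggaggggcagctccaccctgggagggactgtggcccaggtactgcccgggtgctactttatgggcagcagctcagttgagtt
IL26, chr12:68225811-68226060 (- strand): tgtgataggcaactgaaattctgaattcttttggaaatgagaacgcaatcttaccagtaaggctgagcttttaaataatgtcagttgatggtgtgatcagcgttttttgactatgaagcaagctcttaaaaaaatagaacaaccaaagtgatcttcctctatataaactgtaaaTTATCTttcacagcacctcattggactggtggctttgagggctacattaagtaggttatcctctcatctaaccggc
IL7R, chr5:35856641-35856890 (+ strand): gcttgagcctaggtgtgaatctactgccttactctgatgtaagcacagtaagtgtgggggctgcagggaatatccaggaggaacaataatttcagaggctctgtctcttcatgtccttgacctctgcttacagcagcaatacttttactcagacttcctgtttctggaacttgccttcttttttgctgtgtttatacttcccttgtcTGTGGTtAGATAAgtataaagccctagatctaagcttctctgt
IL18RAP, chr2:102418371-102418620 (+ strand): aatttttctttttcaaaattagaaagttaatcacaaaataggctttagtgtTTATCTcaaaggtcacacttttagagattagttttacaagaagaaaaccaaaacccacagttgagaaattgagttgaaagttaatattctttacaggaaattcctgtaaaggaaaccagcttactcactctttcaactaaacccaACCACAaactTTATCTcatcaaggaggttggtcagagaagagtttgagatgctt
IL6, chr7:22726950-22727199 (+ strand): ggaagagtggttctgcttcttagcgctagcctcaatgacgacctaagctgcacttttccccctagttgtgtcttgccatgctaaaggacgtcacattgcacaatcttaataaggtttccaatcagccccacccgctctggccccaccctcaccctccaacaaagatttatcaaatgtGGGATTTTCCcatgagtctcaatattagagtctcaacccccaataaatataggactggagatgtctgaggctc
Among the 34788 distinct promoters of the table the AP-1 letters stood in 6.591%, the GATA letters in 9.207%, the RUNX letters in 10.97% and the NF-kB letters in 1.733%. Over the 108 promoters of members they stood in 17 (15.74%), 16 (14.81%), 24 (22.22%) and 6 (5.556%), and an ETS match (CCGGAAGT) in 0 against 3.409% of all promoters. A match describes the letters and is not evidence of binding.

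After 6 h, 198 of the 747 tested sites (26.51%) were more open than in untreated cells and 110 (14.73%) were less open, where 23.4% and 16.8% of all tested sites in the series were called (edgeR's quasi-likelihood test, adjusted p under 0.05 over all sites). At 72 h against 0 h, 300 sites (40.16%) were higher and 211 (28.25%) lower, against 38.2% and 29.2% of all tested sites. Between 6 h and 72 h, 162 rose and 169 fell, against 22.1% and 20.9%. The members' shares were thus close to those of the series. Among the 129173 tested sites within 20 kb of any protein-coding gene, the 6 h comparison called 23.1% higher and 17.8% lower. The corresponding shares were 35.6% and 32.2% for 72 h against 0 h, then 19.5% and 24.4% for 72 h against 6 h. Median log2 fold changes of the members' sites were 0.07 at 6 h and 0.35 at 72 h, beside 0.05 and 0.29 over all tested sites.

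Early gained here means higher at 6 h against 0 h, which gives the 198 above. A late gained site was higher at 72 h than at both 0 h and 6 h and was not called at 6 h. There were 87 late gained sites (11.65%, against 12.7% of all tested sites and 11.2% of those within 20 kb of a gene), and in each of them both 72 h libraries lay above the other 4. In every early gained site both 6 h libraries lay above both 0 h libraries. Both classes were called from these same libraries, so this follows in part from the calls. The share over all called sites of the series was not counted. Of the early gained sites 171 (22.89% of the members' tested sites) were still higher than at 0 h after 72 h, where 19.7% of all tested sites and 19.0% of those within 20 kb of a gene followed this course. From 6 to 72 h, 48 rose further (6.426% of the members' tested sites, against 5.51% and 4.89%). Another 40 were lower at 72 h than at 6 h and are called transient (5.355%, against 4.59% and 4.98%). A further 41 sites were higher at 72 h than at 0 h without a call that placed the gain before or after 6 h (5.489%, against 5.57% and 5.17%). An early gained site was found at 71 members, a late gained one at 41 and both at 36, and 8 members had neither. These counts depend on the number of sites per gene, and the same count over all genes was not made.

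The deposited peak lists, called by the authors in each library, were read for the same sites. Over all 747 tested sites of members, replicates 1 and 2 had a peak at 35.21% and 41.77% (0 h). These shares were 36.95% and 53.95% at 6 h, and 72.82% and 76.57% at 72 h. The part of library depth in the peak counts was not tested, and peaks were not counted over all tested sites of the series. Gained sites were chosen for a rise in these same libraries, so few earlier peaks follow in part from that choice. Of the 198 early gained sites 147 had no peak in either 0 h library, 102 had a peak in both 6 h libraries and 170 in both 72 h libraries. Among the 87 late gained sites 77 had no peak at 0 h, 74 had none at 6 h and 67 had a peak in both 72 h libraries. No peak before 72 h and peaks in both 72 h libraries were seen at 51 of them.

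Calls in both directions moved with the scaling. Over 5 scalings (TMM, RLE, total counts, loess offsets and TMM from shared peaks) the median change of all sites at 72 h ranged from -0.04 to 1.26 on the log2 scale, with 0.29 under TMM. A scaling that raises all sites removes lower calls and adds higher ones, so the counts that follow reflect that shift. Higher calls that held in all 5 numbered 158 of 198 at 6 h and 221 of 300 at 72 h, which is 21.15% and 29.59% of the members' tested sites, against 18.53% and 26.69% of all tested sites. Lower calls that did so numbered 63 of 110 and 66 of 211 (8.434% and 8.835%, against 8.494% and 9.272%). For the late gained class, which also asks for no call at 6 h, 38 of 87 held (5.087%, against 5.6%). The higher share of the members' calls was 64.29% at 6 h under TMM and 52.77% to 79.75% over the other scalings, beside 58.19% of the calls over all sites under TMM. At 72 h against 0 h it was 58.71% and 51.94% to 85.55%, and at 72 h against 6 h 48.94% and 46.34% to 87.6%, where all sites gave 56.65% and 51.38% under TMM.

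**Figure D1:**
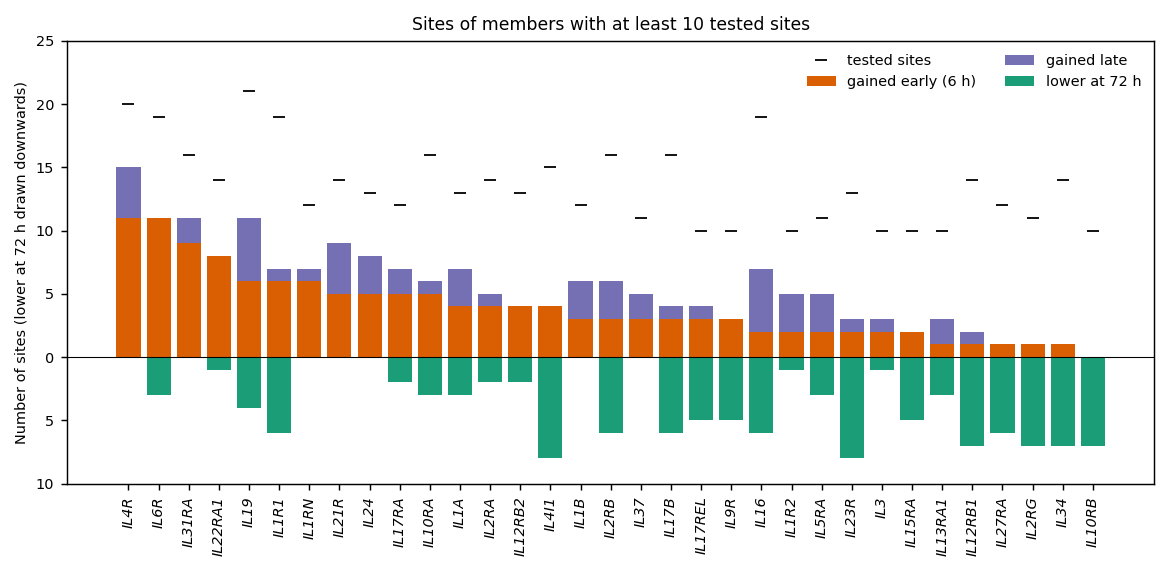
Number of tested sites that were gained early, gained late or lower at 72 h than at 0 h, for the 33 members with at least 10 tested sites; the dash above each gene marks its number of tested sites, and losses are drawn downwards. IL4R had 11 early and 4 late gained sites of 20 and no lower site, and IL10RB had 7 lower sites of 10 and no gain.

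Of the 33 members with at least 10 tested sites, 7 had sites higher and none lower at 72 h: IL4R, IL21R, IL31RA, IL1RN, IL1B, IL24 and IL37. How many of all genes with at least 10 tested sites did so was not counted, and lower calls moved with the scaling as given above. The other pole was IL10RB, a chain shared by the receptors for IL-10 and IL-22, with 7 lower sites of 10 and no early or late gain. IL11RA, the private chain of the IL-11 receptor, likewise had 7 lower sites of 9 and no gain. IL2RG, the common gamma chain, had 1 early gained and 7 lower sites of 11. Only 1 of the 9 sites given to IL11RA and 2 of the 11 given to IL2RG have that gene as their nearest protein-coding gene, and of these 3 the site at the IL11RA start was the only lower one. For IL10RB this was so for 7 of the 10, ties with other genes included, and its start site also overlaps IFNAR2. Among the 7 members without a lower site, a member was the nearest protein-coding gene at only 4 of 13 sites of IL24. For the others it was so at 20 of 20 (IL4R), 12 of 14 (IL21R), 15 of 16 (IL31RA), 12 of 12 (IL1RN), 12 of 12 (IL1B) and 11 of 11 (IL37).

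**Figure D2:**
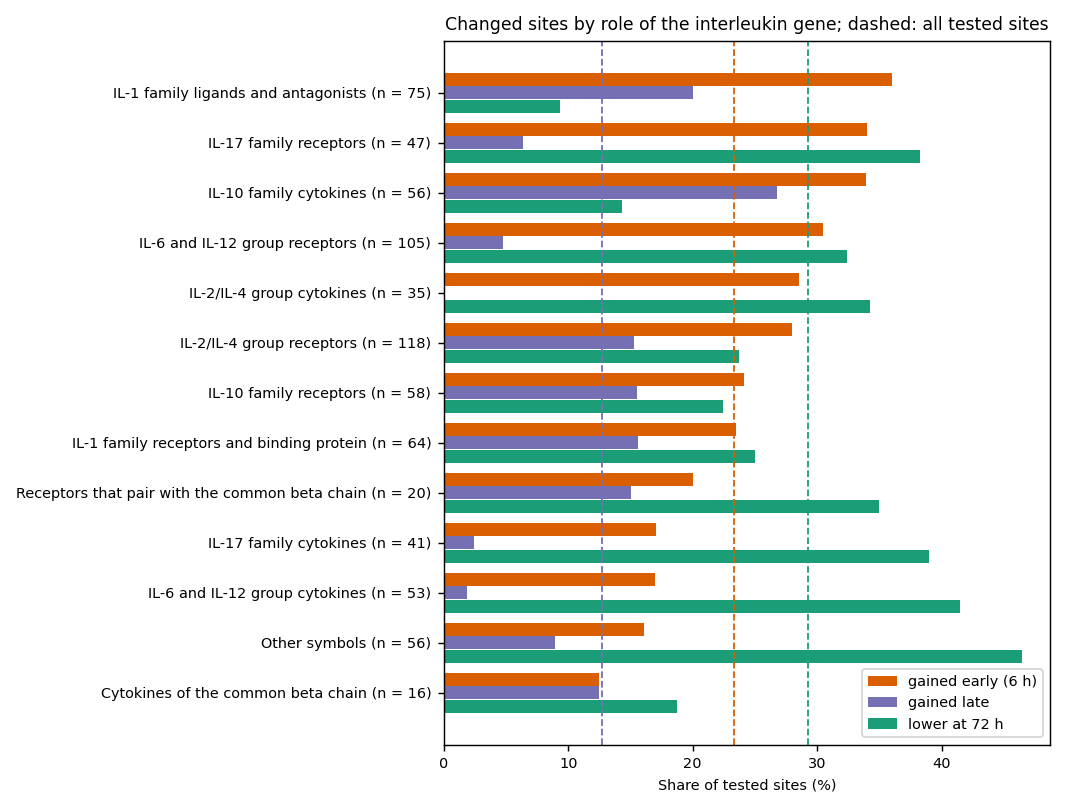
Share of tested sites gained early, gained late and lower at 72 h, by role of the gene, for roles with at least 10 tested sites (n, tested sites); dashed lines are the shares over all tested sites of the series. IL-1 family ligands and IL-10 family cytokines have few lower sites, and IL-6 and IL-12 group cytokines many.

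Over all tested sites of the series, 23.4% were early gained, 12.7% late gained and 29.2% lower at 72 h, and the counts by role are to be read against these shares. Among ligands, the IL-1 family had 75 tested sites, of which 27 were early gained, 15 late gained and 7 lower at 72 h. The IL-10 family cytokines had 19 early gained, 15 late gained and 8 lower sites of 56. In contrast, the IL-6 and IL-12 group cytokines had 9 early gained, 1 late gained and 22 lower sites of 53, and the IL-17 cytokines 7, 1 and 16 of 41. The IL-2/IL-4 group cytokines had 10 early gained and 0 late gained sites of 35. Receptors of the IL-2/IL-4 group had 33 early gained, 18 late gained and 28 lower sites of 118, those of the IL-6 and IL-12 group 32, 5 and 34 of 105, and the IL-17 receptors 16, 3 and 18 of 47. The receptors and binding protein of the IL-1 family had 15, 10 and 16 of 64, and those of the IL-10 family 14, 9 and 13 of 58. Their early gained shares, 23.44% and 24.14%, were near that of all tested sites. IL3 and IL5 together had 2 early gained, 2 late gained and 3 lower sites of 16, and their receptors IL3RA and IL5RA 4, 3 and 7 of 20. IL16, IL32, IL34 and IL4I1, which carry the name without belonging to these families, had 9, 5 and 26 of 56, and all 5 late gains were at IL16. IL1RAPL1 and IL1RAPL2, relatives of the IL-1 receptor accessory protein known from neurons, had 3 tested sites, 1 of them early gained and 1 lower. Neighbouring sites are not independent, and these counts carry no test.

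Of the IL-1 family ligands, all but IL18 and IL33 lie in a row of 9 genes on chromosome 2, from IL1A to IL1RN, and this row had 63 tested sites with 25 early gained, 10 late gained and 5 lower at 72 h. The most open of its named sites was within IL1RN, which encodes the antagonist of the IL-1 receptor (peak93770, chr2:113103855-113105614). This site had 1.24 and 1.86 CPM (0 h), 31.8 and 41.3 CPM (6 h) and 27.5 and 31.5 CPM (72 h). Both treated groups lay far above the untreated one and did not differ from each other by the test (-0.32, SE 0.17, adjusted p = 0.149), with a log2 fold change at 6 h of 4.53 (SE 0.23, adjusted p = 1.5e-11) and at 72 h of 4.22 (SE 0.23, adjusted p = 3.7e-11). A smaller site within the same gene (peak93775, chr2:113125475-113125790) followed it, with 0.325 and 0.191 CPM (0 h), 2.13 and 3.73 CPM (6 h) and 3.26 and 3 CPM (72 h) and a log2 fold change at 6 h of 3.59 (SE 0.48, adjusted p = 3.9e-06).

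Next to IL1RN lies IL1F10, which encodes IL-38. Beyond its end a site (peak93766, chr2:113083218-113083820, 7375 bases away) had 0.26 and 0.335 CPM (0 h), 6.99 and 7.94 CPM (6 h) and 6.65 and 7.22 CPM (72 h). On the log2 scale the 6 h change was 4.62 (SE 0.37, adjusted p = 2.9e-09). Its neighbour (peak93765, chr2:113081420-113081641) had 0 and 0.191 CPM (0 h), 2.22 and 3.01 CPM (6 h) and 2.25 and 1.82 CPM (72 h). It reached 4.56 (SE 0.62, adjusted p = 4.2e-06) at 6 h. Neither differed between 6 and 72 h by the test, with changes of -0.12 (SE 0.23, adjusted p = 0.714) and -0.40 (SE 0.37, adjusted p = 0.4). Before the start of IL36G, an agonist of the IL-36 receptor, a site (peak93754, chr2:112972225-112972896) had 0.26 and 0.0956 CPM (0 h), 4.09 and 3.99 CPM (6 h) and 3.86 and 4.04 CPM (72 h). Here too the 6 h and 72 h libraries were at one level and both groups stood clear of the untreated libraries, with a log2 fold change of 4.56 (SE 0.47, adjusted p = 1.1e-07) at 6 h.

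At the other end of the row, IL1A and IL1B encode the 2 classical IL-1 agonists. IL1A had 4 early gained, 3 late gained and 3 lower sites of 13, and IL1B 3, 3 and 0 of 12. The named sites away from their starts, chosen by the size of the change, were late gains. A site within IL1A (peak93708, chr2:112777153-112777680) had 0.26 and 0.383 CPM (0 h), 0.256 and 0.475 CPM (6 h) and 2.51 and 2.9 CPM (72 h). The log2 fold change there was 0.29 (SE 0.61, adjusted p = 0.731) at 6 h and 3.02 (SE 0.47, adjusted p = 7.7e-06) at 72 h. The site 2430 bases before the start of IL1B (peak93727, chr2:112839209-112840165) had 1.43 and 1.1 CPM (0 h), 3.07 and 1.65 CPM (6 h) and 9.76 and 7.46 CPM (72 h). The 72 h libraries gave a log2 fold change of 2.78 (SE 0.33, adjusted p = 1.9e-07). At 6 h its change of 0.81 (SE 0.37, adjusted p = 0.0853) did not pass the test. Past the end of IL1B a further site (peak93719, chr2:112811625-112812384) had 1.43 and 0.908 CPM (0 h), 0.512 and 1.58 CPM (6 h) and 7.12 and 6.39 CPM (72 h). The 0 h and 6 h libraries overlapped there, and the log2 fold change at 72 h was 2.56 (SE 0.36, adjusted p = 2.4e-06).

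**Figure D3:**
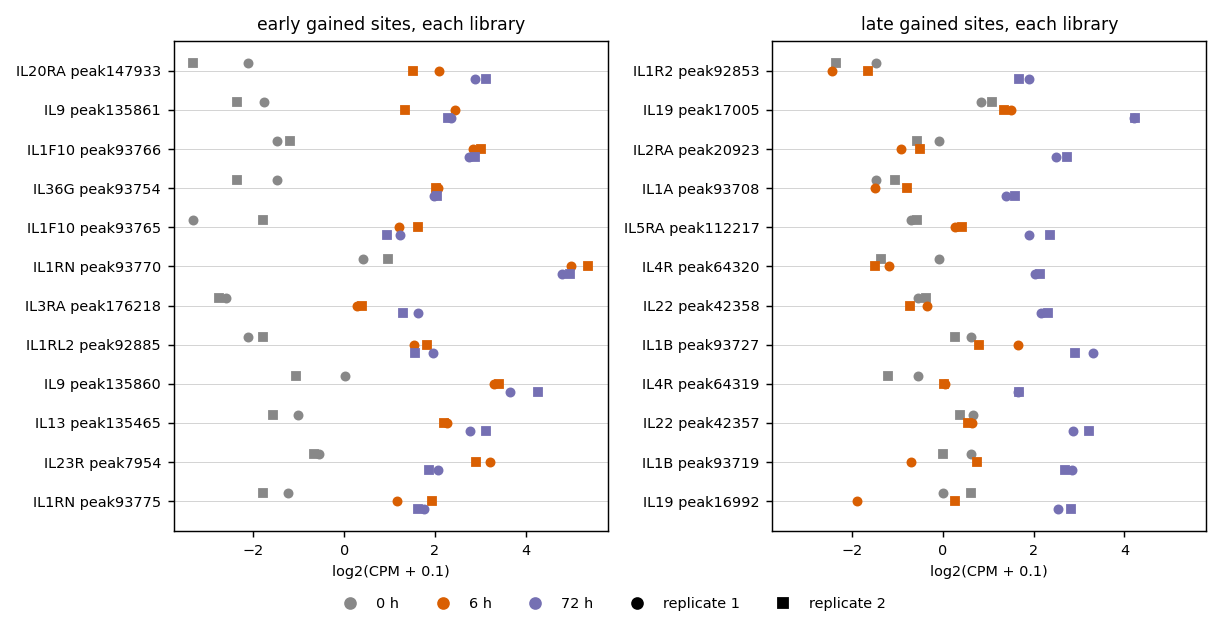
Level of the 12 early gained sites (left) and the 12 late gained sites (right) with the largest changes, in each library, as log2 of CPM plus 0.1; colours are times and shapes are replicates. The 6 h libraries lie nearer to the 72 h than to the 0 h libraries at most sites on the left, and mostly with the 0 h libraries on the right.

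The IL-1 receptor genes form a second row on chromosome 2, from IL1R2 to IL18RAP, with 12 early gained, 7 late gained and 12 lower sites of 52. A site before IL1R2, which encodes a decoy receptor for IL-1 (peak92853, chr2:101972844-101973579), had 0.26 and 0.0956 CPM (0 h), 0.0853 and 0.222 CPM (6 h) and 3.62 and 3.09 CPM (72 h). It was at the level of a few reads until 72 h, when its log2 fold change reached 4.29 (SE 0.53, adjusted p = 3.7e-07). Within IL1RL2, the IL-36 receptor chain, a site (peak92885, chr2:102238327-102238813) had 0.13 and 0.191 CPM (0 h), 2.81 and 3.42 CPM (6 h) and 3.81 and 2.85 CPM (72 h) and was an early gain of 4.22 (SE 0.50, adjusted p = 6.6e-07). Start sites in this row went the other way at IL18RAP, an accessory chain of the IL-18 receptor (peak92902, chr2:102418325-102418915), with 7.61 and 10.2 CPM (0 h), 4.43 and 4.59 CPM (6 h) and 4.06 and 3.99 CPM (72 h). Its log2 fold change was -0.98 (SE 0.25, adjusted p = 0.00305) at 6 h and -1.15 (SE 0.24, adjusted p = 0.00022) at 72 h, and the 72 h call ended with TMM from shared peaks (-0.18, adjusted p = 0.508).

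The IL-10 family cytokines IL10, IL19, IL20 and IL24 are neighbours on chromosome 1, with 14 early gained, 13 late gained and 4 lower sites of 43. Of the late gained sites shown, the one with the highest level at 72 h lies within IL19 (peak17005, chr1:206839823-206841236) and had 1.69 and 2.01 CPM (0 h), 2.73 and 2.44 CPM (6 h) and 18.5 and 18.7 CPM (72 h). Both 72 h libraries lay well above the other 4, with log2 fold changes of 0.45 (SE 0.28, adjusted p = 0.208) at 6 h and 3.32 (SE 0.25, adjusted p = 6.7e-10) at 72 h. A second IL19 site (peak16992, chr1:206796815-206797332) had 0.91 and 1.43 CPM (0 h), 0.171 and 1.11 CPM (6 h) and 5.72 and 7.03 CPM (72 h). On the log2 scale the 72 h change was 2.41 (SE 0.38, adjusted p = 1.1e-05). IL22 and IL26 are neighbours on chromosome 12, and outside IL22, a cytokine that acts on epithelia, sites 17668 bases (peak42358, chr12:68271272-68271858) and 16043 bases away (peak42357, chr12:68269647-68270537) were both late. The first had 0.585 and 0.669 CPM (0 h), 0.682 and 0.506 CPM (6 h) and 4.38 and 4.91 CPM (72 h), and the second had 1.5 and 1.2 CPM (0 h), 1.45 and 1.36 CPM (6 h) and 7.14 and 9.2 CPM (72 h). Their log2 fold changes at 72 h were 2.87 (SE 0.37, adjusted p = 6.7e-07) and 2.62 (SE 0.30, adjusted p = 1.3e-07), with no call at 6 h.

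Receptors of this family differed between genes. IL20RA, a chain of the receptors for IL-19, IL-20 and IL-24, had 1 early gained and 6 late gained sites of 8 and no lower site. The early one lies 6720 bases before its start (peak147933, chr6:137051685-137052382), with 0.13 and 0 CPM (0 h), 4.18 and 2.75 CPM (6 h) and 7.25 and 8.57 CPM (72 h). Only 2 counts fell there in the untreated libraries together against 136 at 6 h and 643 at 72 h, a ratio of 57.0 (exact 95% interval 15.5 to 475) and of 144 (39.7 to 1192), covering counting error only. IL22RA1, a chain of the IL-22 receptor, had 8 early gained sites of 14 and no late one. Across the gap from IL20RA, a site within IL22RA2, a soluble receptor that binds IL-22 (peak147944, chr6:137170137-137170767), dipped early, with 10.7 and 5.36 CPM (0 h), 2.64 and 1.39 CPM (6 h) and 4.5 and 3.82 CPM (72 h). Its fall at 6 h of -2.09 (SE 0.35, adjusted p = 5.7e-05) was followed by a rise from 6 to 72 h of 1.16 (SE 0.35, adjusted p = 0.00991), which did not pass without replicate 2 at 6 h (0.70, adjusted p = 0.213) or without replicate 1 at 72 h (1.07, adjusted p = 0.0677).

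**Figure D4:**
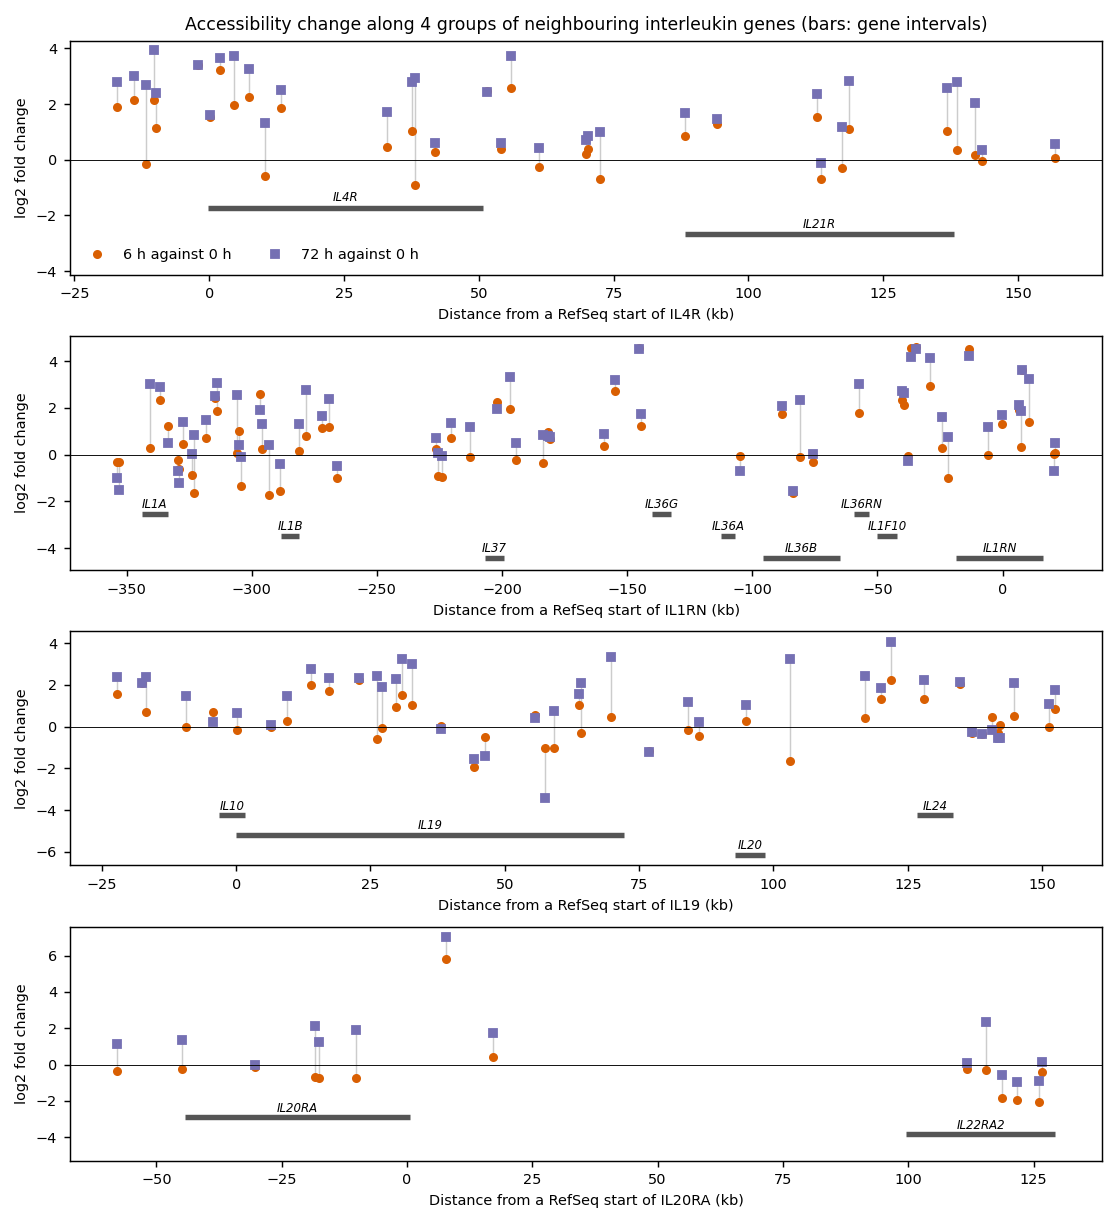
Log2 fold change of each tested site at 6 h (circles) and 72 h (squares) against 0 h, by distance in kb from a RefSeq start of the named gene, along 4 groups of neighbouring members; grey bars below are the gene intervals. The sites along IL4R and IL21R are nearly all above 0 at 72 h, and 6 of the 8 sites of IL20RA are late gained.

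IL4R, the receptor chain used by IL-4 and IL-13, and IL21R, the receptor of IL-21, are neighbours on chromosome 16. Of their 34 tested sites 16 were early gained, 8 late gained, 27 higher at 72 h and 0 lower. Their median change on the log2 scale was 0.95 at 6 h and 2.38 at 72 h. Within IL4R, late gained sites lay close together. The first (peak64320, chr16:27351959-27352470) had 0.845 and 0.287 CPM (0 h), 0.341 and 0.253 CPM (6 h) and 3.96 and 4.34 CPM (72 h), and the second (peak64319, chr16:27351280-27351889) had 0.585 and 0.335 CPM (0 h), 0.938 and 0.918 CPM (6 h) and 3.06 and 3.12 CPM (72 h). They reached 2.95 (SE 0.42, adjusted p = 3.2e-06) and 2.78 (SE 0.42, adjusted p = 6.2e-06) on the log2 scale at 72 h, and neither change at 6 h passed the test (-0.92, SE 0.62, adjusted p = 0.245, and 1.05, SE 0.49, adjusted p = 0.0955).

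IL2RA, the alpha chain of the IL-2 receptor, had 4 early gained, 1 late gained and 2 lower sites of 14. The late gained site lies within the gene (peak20923, chr10:6018304-6018970) and had 0.845 and 0.574 CPM (0 h), 0.426 and 0.601 CPM (6 h) and 5.51 and 6.51 CPM (72 h). It did not differ at 6 h by the test (-0.35, SE 0.47, adjusted p = 0.586) and rose at 72 h by 3.11 (SE 0.35, adjusted p = 1.3e-07). IL15RA, next to IL2RA on chromosome 10, had 2 early gained and 5 lower sites of 10. The site 8810 bases before its start (peak20918, chr10:5987551-5988270) had 5.59 and 3.83 CPM (0 h), 1.45 and 1.42 CPM (6 h) and 0.181 and 0.283 CPM (72 h). By 72 h the log2 fold change was -4.29 (SE 0.41, adjusted p = 1.3e-08). Within IL2RB, the beta chain of the IL-2 and IL-15 receptors, a site (peak110648, chr22:37141835-37142374) had 4.94 and 2.73 CPM (0 h), 0.682 and 1.11 CPM (6 h) and 0.207 and 0.33 CPM (72 h). It fell at 6 h with a log2 change of -1.99 (SE 0.42, adjusted p = 0.00067) and at 72 h of -3.79 (SE 0.45, adjusted p = 2.5e-07).

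Of the cytokines of this group, IL9, a growth factor of T cells and mast cells, had early gains far before its start. The site 18178 bases away (peak135861, chr5:135914019-135914534) had 0.195 and 0.0956 CPM (0 h), 5.29 and 2.44 CPM (6 h) and 5.02 and 4.79 CPM (72 h). This was a log2 fold change at 6 h of 4.67 (SE 0.56, adjusted p = 7.9e-07). The nearer one (peak135860, chr5:135908770-135909569, 12929 bases) had 0.91 and 0.383 CPM (0 h), 9.81 and 10.5 CPM (6 h) and 12.5 and 19.3 CPM (72 h). It changed by 4.04 (SE 0.35, adjusted p = 9.2e-09) at 6 h. Replicates at 6 h differed more at the first of these than at the second. A site 14506 bases before IL13 (peak135465, chr5:132641226-132642016) had 0.39 and 0.239 CPM (0 h), 4.69 and 4.49 CPM (6 h) and 6.76 and 8.66 CPM (72 h) and an early gain of 3.89 (SE 0.40, adjusted p = 9.6e-08), but its nearest gene is RAD50.

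IL6R, the binding chain of the IL-6 receptor, and IL31RA, a chain of the IL-31 receptor, were the members of the IL-6 and IL-12 group with most early gains, 11 of 19 sites and 9 of 16. IL31RA had 2 late gained and no lower sites, and IL6R had no late gained site and 3 lower ones. The named loss within IL6R (peak12560, chr1:154460645-154461298) had 6.17 and 4.02 CPM (0 h), 2.05 and 1.33 CPM (6 h) and 0.362 and 0.283 CPM (72 h). The 72 h libraries gave a log2 fold change of -3.96 (SE 0.40, adjusted p = 2.4e-08). IL23R, the private chain of the IL-23 receptor, held both directions inside 1 gene. One of its sites (peak7954, chr1:67159144-67159719) had 0.585 and 0.526 CPM (0 h), 9.21 and 7.4 CPM (6 h) and 4.06 and 3.56 CPM (72 h). It rose at 6 h by 3.88 (SE 0.34, adjusted p = 1.2e-08) and fell from 6 to 72 h with a log2 change of -1.11 (SE 0.25, adjusted p = 0.00118), the fall missing the threshold with TMM from shared peaks (-0.44, adjusted p = 0.151) and without replicate 2 at 72 h (-0.97, adjusted p = 0.0532). Another, also within the gene (peak7952, chr1:67141723-67142067) had 4.22 and 5.45 CPM (0 h), 1.11 and 1.08 CPM (6 h) and 0.544 and 0.637 CPM (72 h). It fell at 6 h with a log2 change of -2.15 (SE 0.35, adjusted p = 4.6e-05).

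Losses named in this group also lay outside genes. A site 15767 bases before IL27RA, a chain of the IL-27 receptor (peak81784, chr19:14015241-14015995), is nearest to RFX1 and had 6.37 and 5.02 CPM (0 h), 1.71 and 1.33 CPM (6 h) and 0.518 and 0.401 CPM (72 h). By 72 h the log2 fold change was -3.62 (SE 0.35, adjusted p = 1.6e-08). One 15863 bases from IL31 (peak45707, chr12:122155527-122156166) is nearest to MLXIP and had 8.19 and 9.32 CPM (0 h), 1.02 and 2.53 CPM (6 h) and 0.621 and 0.448 CPM (72 h), with -4.03 (SE 0.36, adjusted p = 4.4e-09) at 72 h. Both groups of treated libraries lay below the untreated ones at both sites. Within IL17REL, a receptor-like member (peak111984, chr22:50001849-50002320), the level was 4.62 and 4.21 CPM (0 h), 0.938 and 1.04 CPM (6 h) and 0.155 and 0.0944 CPM (72 h). Its log2 fold change at 72 h of -5.10 (SE 0.45, adjusted p = 4.4e-09) was the most negative of the losses shown. The 72 h calls of these losses, and those of IL15RA, IL2RB and IL6R above, kept their side of the threshold in all 13 alternatives run for each.

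IL-3 and IL-5 receptors use the common beta chain CSF2RB, and IL3RA and IL5RA are their private chains. A site 13905 bases before IL3RA (peak176218, chrX:1322277-1322880) is nearest to CSF2RA and had 0.065 and 0.0478 CPM (0 h), 1.11 and 1.2 CPM (6 h) and 3 and 2.36 CPM (72 h). It held 2 counts at 0 h in both libraries together, 51 at 6 h and 216 at 72 h, which is a ratio of 21.4 (exact 95% interval 5.62 to 181) and of 48.4 (13.2 to 402). This gene and IL9R lie in parts that chromosomes X and Y share, where the counting of reads is uncertain. A site beyond the end of IL5RA (peak112217, chr3:3052991-3053630) is nearest to CNTN4 and had 0.52 and 0.574 CPM (0 h), 1.11 and 1.23 CPM (6 h) and 3.62 and 5.07 CPM (72 h). Its change at 6 h narrowly missed the threshold (1.105, SE 0.45, adjusted p = 0.0527), and at 72 h it was 2.97 (SE 0.38, adjusted p = 7.4e-07).

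Transient gains numbered 40, and those with the largest falls after 6 h were at 5 members. Before the start of IL11, a cytokine known to support megakaryocytes, a site (peak85856, chr19:55372514-55373143, 2051 bases away) had 3.31 and 2.82 CPM (0 h), 9.72 and 11.3 CPM (6 h) and 2.48 and 2.29 CPM (72 h). It rose at 6 h by 1.79 (SE 0.26, adjusted p = 8.5e-06) and fell with a log2 change of -2.14 (SE 0.25, adjusted p = 1.2e-06) from 6 to 72 h, and at 72 h it did not differ from 0 h by the test (-0.35, SE 0.26, adjusted p = 0.24). Within IL17B a site (peak137082, chr5:149397480-149398002) had 1.04 and 1.05 CPM (0 h), 3.84 and 4.05 CPM (6 h) and 1.17 and 1.3 CPM (72 h), with 1.91 (SE 0.36, adjusted p = 0.00018) at 6 h and -1.68 (SE 0.32, adjusted p = 0.00024) afterwards. The IL4I1 site (peak85161, chr19:49895955-49896401), within a gene for an amino acid oxidase, had 1.3 and 1.39 CPM (0 h), 3.07 and 4.62 CPM (6 h) and 0.802 and 1.13 CPM (72 h). It fell from 6 to 72 h with a log2 change of -2.02 (SE 0.34, adjusted p = 7.9e-05), and its rise at 6 h was lost without replicate 2 at 6 h (1.13, adjusted p = 0.0717). Near IL34, a ligand of the CSF1 receptor, a site (peak66649, chr16:70574539-70575033) is nearest to SF3B3 and had 1.17 and 1.91 CPM (0 h), 5.2 and 3.1 CPM (6 h) and 1.27 and 1.01 CPM (72 h); its rise of 1.35 (SE 0.37, adjusted p = 0.00587) was lost without replicate 1 at 0 h (1.00, adjusted p = 0.0623) and without replicate 1 at 6 h (0.98, adjusted p = 0.0631). Within IL17RE, a receptor for IL-17C, a site (peak112677, chr3:9909518-9909719) had 0.325 and 0.622 CPM (0 h), 1.88 and 2.06 CPM (6 h) and 0.647 and 0.708 CPM (72 h). It rose at 6 h by 2.01 (SE 0.48, adjusted p = 0.0019) and fell afterwards by -1.54 (SE 0.41, adjusted p = 0.00456). The fall missed the threshold with TMM from shared peaks (-0.87, adjusted p = 0.0871), without replicate 2 at 6 h (-1.41, adjusted p = 0.0557) and without replicate 1 or 2 at 72 h (-1.43 and -1.55, adjusted p = 0.0725 and 0.0597).

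Sites at gene starts were looked at apart. A start in the promoter table lay under 43 tested sites of 40 members, of which 11 were early gained, 4 late gained and 18 lower at 72 h. Over all 13277 tested sites at a start in the series, 7.246% were early gained, 2.968% late gained, 42.29% lower at 6 h and 77.83% lower at 72 h. For the members' starts these were 25.58%, 9.302%, 11.63% and 41.86%. These shares carry no test, and how open the sites were at 0 h was not matched.

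**Figure D5:**
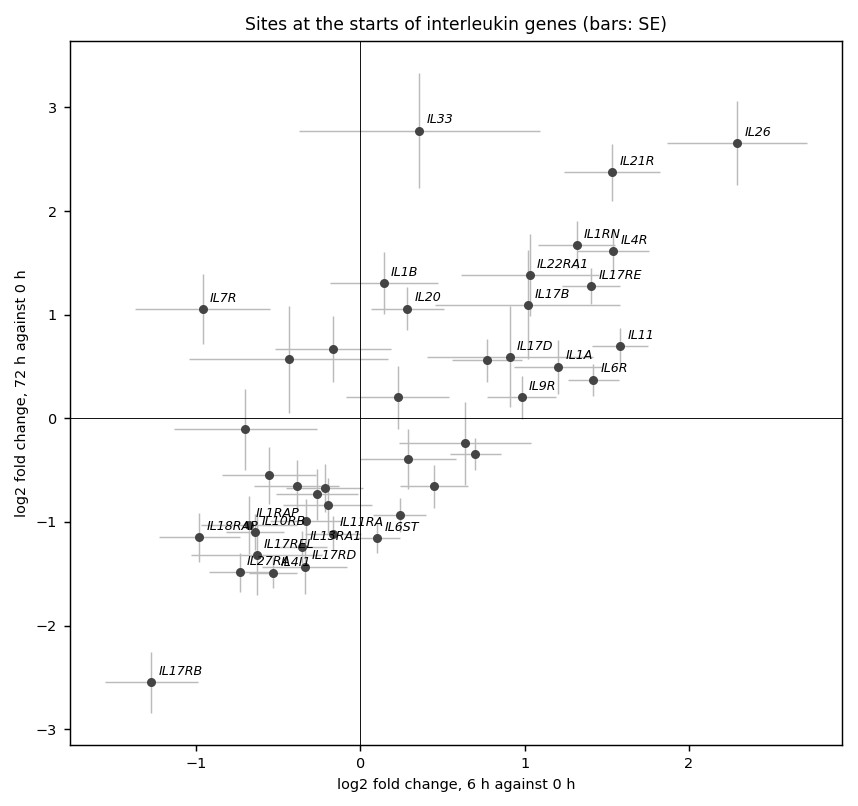
Log2 fold change at 6 h (x axis) and 72 h (y axis) against 0 h of the 43 tested sites at starts of 40 members, with SE as bars; genes with larger changes are named. IL26, IL21R (peak64331), IL4R, IL1RN and IL17RE rose at both times, IL11, IL6R and IL9R were highest at 6 h, and IL17RB fell most.

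Start sites that gained early took several courses. IL11, whose printed sequence holds an AP-1 match that begins 96 bases before the start (peak85855, chr19:55369001-55370843), had 11.3 and 11.9 CPM (0 h), 32.1 and 37.4 CPM (6 h) and 18.4 and 19.3 CPM (72 h). It rose at 6 h by 1.58 (SE 0.17, adjusted p = 2.2e-07) and was still above 0 h at 72 h by 0.70 (SE 0.17, adjusted p = 0.00105). The fall from 6 to 72 h of -0.88 (SE 0.16, adjusted p = 0.00017) did not pass with TMM from shared peaks (-0.21, adjusted p = 0.255) or loess offsets (-0.19, adjusted p = 0.346). The start site of IL6R (peak12550, chr1:154405007-154406517) had 19.4 and 19.4 CPM (0 h), 47.7 and 55.9 CPM (6 h) and 24.8 and 25.5 CPM (72 h). It rose by 1.42 (SE 0.16, adjusted p = 2.5e-07) at 6 h and fell with a log2 change of -1.05 (SE 0.15, adjusted p = 1.3e-05) to 72 h. Its remaining difference from 0 h of 0.37 (SE 0.15, adjusted p = 0.0362) ended with RLE factors (0.19, adjusted p = 0.295), with DESeq2 and without any 1 of the 0 h or 72 h libraries, and the fall from 6 h ended with loess offsets (-0.20, adjusted p = 0.271). IL1A, with an AP-1 match that begins 12 bases before its start (peak93710, chr2:112784185-112784794), had 2.6 and 3.83 CPM (0 h), 7.16 and 7.75 CPM (6 h) and 4.89 and 4.29 CPM (72 h). By 6 h the log2 fold change was 1.20 (SE 0.27, adjusted p = 0.00101).

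Kept gains were seen at the starts of IL1RN, IL4R, IL17RE, IL21R and IL26. At IL1RN, where the AP-1 match begins 223 bases before the start, the site (peak93772, chr2:113117351-113118134) had 4.42 and 6.26 CPM (0 h), 11 and 15.5 CPM (6 h) and 15.2 and 19.2 CPM (72 h). It rose by 1.32 (SE 0.23, adjusted p = 0.00012) at 6 h. At IL4R (peak64312, chr16:27313384-27314861) the level was 4.94 and 8.22 CPM (0 h), 19.3 and 19.4 CPM (6 h) and 18.7 and 22 CPM (72 h). Here the change was 1.54 (SE 0.22, adjusted p = 7.5e-06) at 6 h and 1.61 (SE 0.21, adjusted p = 1.1e-06) at 72 h. IL17RE (peak112676, chr3:9902215-9903905) had 8.97 and 10.6 CPM (0 h), 24.6 and 27.1 CPM (6 h) and 23.1 and 24.4 CPM (72 h), with 1.40 (SE 0.18, adjusted p = 1.8e-06) at 6 h. These 3 sites did not change by the test from 6 to 72 h. IL21R (peak64331, chr16:27426307-27427141) had 1.36 and 1.82 CPM (0 h), 4.26 and 4.97 CPM (6 h) and 7.87 and 8.85 CPM (72 h). It rose again after 6 h by 0.84 (SE 0.24, adjusted p = 0.00809), a call lost without replicate 2 at 72 h (0.81, adjusted p = 0.0888). Another IL21R site, which covers the listed start itself (peak64332, chr16:27427232-27427442), was called in no comparison. Its change was -0.70 (SE 0.43, adjusted p = 0.207) at 6 h and -0.11 (SE 0.39, adjusted p = 0.822) at 72 h. IL26, a cytokine of the IL-10 family whose printed sequence has a GATA match 76 bases before the start (peak42351, chr12:68225474-68226005), had 0.585 and 0.383 CPM (0 h), 2.05 and 2.53 CPM (6 h) and 3.03 and 2.97 CPM (72 h). It rose at 6 h by 2.29 (SE 0.43, adjusted p = 0.00018).

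The late gained start sites were those of IL7R, IL1B, IL33 and IL20. IL7R encodes the alpha chain of the IL-7 receptor, and adjoining RUNX and GATA matches begin 43 and 36 bases before its start. The site there (peak131395, chr5:35856470-35857127) had 1.56 and 1.63 CPM (0 h), 0.512 and 0.981 CPM (6 h) and 3.03 and 3.61 CPM (72 h). Both 6 h libraries lay below and both 72 h libraries above the untreated ones. The change at 6 h was -0.96 (SE 0.41, adjusted p = 0.0656), and that at 72 h of 1.06 (SE 0.34, adjusted p = 0.0094) did not pass with DESeq2 (0.88, adjusted p = 0.0942), with loess offsets (0.39, adjusted p = 0.331) or without replicate 2 at 72 h (0.92, adjusted p = 0.103). IL1B (peak93726, chr2:112836620-112837222) had 2.15 and 1.67 CPM (0 h), 1.79 and 2.28 CPM (6 h) and 4.63 and 4.72 CPM (72 h). On the log2 scale the 72 h change was 1.30 (SE 0.30, adjusted p = 0.00061). IL33, an alarmin of the IL-1 family (peak169151, chr9:6214393-6214978), had 0.13 and 0.287 CPM (0 h), 0.341 and 0.253 CPM (6 h) and 1.66 and 1.39 CPM (72 h), a low level throughout, and a change of 2.78 (SE 0.56, adjusted p = 0.00017). IL20 (peak17009, chr1:206864846-206866561) had 5.98 and 6.26 CPM (0 h), 7.84 and 7.18 CPM (6 h) and 12.3 and 13.2 CPM (72 h). It changed by 1.06 (SE 0.21, adjusted p = 0.00015) against 0 h, and its further rise after 6 h did not pass without replicate 2 at 72 h (0.78, adjusted p = 0.0533).

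Among the falling start sites, that of IL17RB, the receptor for IL-25 (peak116285, chr3:53845768-53846737, which also overlaps CHDH), had 6.76 and 6.79 CPM (0 h), 2.64 and 2.91 CPM (6 h) and 1.35 and 0.968 CPM (72 h). Its change was -1.27 (SE 0.28, adjusted p = 0.0011) at 6 h and -2.55 (SE 0.29, adjusted p = 1.3e-07) at 72 h. IL27RA (peak81788, chr19:14031498-14032699, which also overlaps RLN3) had 20.7 and 26.1 CPM (0 h), 14.5 and 13.7 CPM (6 h) and 7.69 and 9.02 CPM (72 h). It changed by -1.49 (SE 0.19, adjusted p = 5.9e-07) at 72 h. The 72 h calls of both held in all 13 alternatives. IL6ST, which encodes gp130 (peak132157, chr5:55994629-55995602), had 56.7 and 60.3 CPM (0 h), 61.3 and 64.5 CPM (6 h) and 25.9 and 26.6 CPM (72 h). Nothing passed at 6 h, and at 72 h the change was -1.16 (SE 0.14, adjusted p = 2.7e-07) against 0 h, which turned to 0.24 with loess offsets and did not pass with TMM from shared peaks (-0.19, adjusted p = 0.192). The start sites of IL10RB, IL11RA and IL13RA1, a chain bound by IL-13, changed by -1.101 (SE 0.17, adjusted p = 1.1e-05), -1.11 (SE 0.17, adjusted p = 6.8e-06) and -1.24 (SE 0.15, adjusted p = 3.8e-07) at 72 h. With loess offsets these 3 changes were -0.30, -0.34 and -0.19 and no longer passed (adjusted p = 0.127, 0.0757 and 0.241), and with TMM from shared peaks they were -0.14, -0.15 and -0.27 (adjusted p = 0.488, 0.435 and 0.0969). IL6 is a classical early target of NF-kB and AP-1 in many cells, and an NF-kB match begins 73 bases before its start. The site there (peak151928, chr7:22727012-22727720) had 9.81 and 10.6 CPM (0 h), 7.84 and 9.56 CPM (6 h) and 5.23 and 7.58 CPM (72 h). It changed by -0.22 (SE 0.23, adjusted p = 0.479) at 6 h and -0.67 (SE 0.23, adjusted p = 0.0127) at 72 h.

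The other early gained start sites were those of IL9R, IL17RC and IL18BP, and all rose by less than 1 on the log2 scale at 6 h. IL17RC, a chain of the receptor for IL-17A and IL-17F (peak112680, chr3:9916579-9917432), had 32.9 and 36.2 CPM (0 h), 56.6 and 55.6 CPM (6 h) and 23.8 and 30.8 CPM (72 h). It fell from 6 to 72 h with a log2 change of -1.04 (SE 0.15, adjusted p = 1.8e-05), a fall that ended with loess offsets (-0.11, adjusted p = 0.553), and at 72 h it did not differ from 0 h by the test (-0.34, SE 0.15, adjusted p = 0.0553). IL9R, the private chain of the IL-9 receptor (peak181046, chrX:155997261-155997909), took the same course with 7.61 and 10 CPM (0 h), 15.6 and 19.2 CPM (6 h) and 9.42 and 10.9 CPM (72 h) and a 6 h change of 0.98 (SE 0.21, adjusted p = 0.00073). IL18BP, a secreted protein that binds IL-18 (peak34389, chr11:71999619-72000298), had 6.3 and 7.03 CPM (0 h), 10.9 and 11.8 CPM (6 h) and 9.35 and 10.3 CPM (72 h). It rose by 0.77 (SE 0.21, adjusted p = 0.00641) at 6 h. The start site of IL22RA1 (peak3223, chr1:24142795-24143581) had 0.585 and 1 CPM (0 h), 1.71 and 1.65 CPM (6 h) and 2.25 and 2.01 CPM (72 h). It was called at 72 h only against 0 h, with 1.38 (SE 0.39, adjusted p = 0.00392), and not with loess offsets (0.67, adjusted p = 0.151).

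Falls of more than 1 in at least 1 comparison were also measured at other starts, most of them of receptor genes. IL15RA (peak20916, chr10:5976865-5978249) had 29.1 and 37.1 CPM (0 h), 38.3 and 40 CPM (6 h) and 18.5 and 16.1 CPM (72 h). From 6 to 72 h it changed by -1.18 (SE 0.16, adjusted p = 8.1e-06), which did not pass with loess offsets (-0.345, adjusted p = 0.0812). IL1R1, the signalling receptor of IL-1 (peak92879, chr2:102142384-102143224), had 9.36 and 10.7 CPM (0 h), 14.8 and 12.7 CPM (6 h) and 6.06 and 6.68 CPM (72 h). Its change from 6 to 72 h was -1.102 (SE 0.21, adjusted p = 0.0002), and this ended with TMM from shared peaks (-0.43, adjusted p = 0.0803). At these IL15RA and IL1R1 sites the 6 h libraries lay above the 72 h libraries. Another IL1R1 start site (peak92876) was called in no comparison, with -0.88 (SE 0.38, adjusted p = 0.0649) from 6 to 72 h. IL1RAP, the accessory chain of that receptor (peak122184, chr3:190513596-190514286), had 4.42 and 5.07 CPM (0 h), 3.24 and 2.79 CPM (6 h) and 2.02 and 2.64 CPM (72 h). Its 72 h change of -1.03 (SE 0.28, adjusted p = 0.00279) ended with TMM from shared peaks (-0.059, adjusted p = 0.862), with total counts (-0.53, adjusted p = 0.0986) and without replicate 1 at 72 h (-0.85, adjusted p = 0.0627). IL17RD (peak116420, chr3:57164990-57165694) had 8.06 and 7.27 CPM (0 h), 6.99 and 5.32 CPM (6 h) and 3.37 and 2.31 CPM (72 h). The 72 h change was -1.43 (SE 0.26, adjusted p = 5.3e-05) and did not pass with TMM from shared peaks (-0.46, adjusted p = 0.123). Another IL17RD start site (peak116421) was called in no comparison, with -0.55 (SE 0.27, adjusted p = 0.079) at 72 h. IL17REL (peak111985, chr22:50012565-50013054) had 1.95 and 2.2 CPM (0 h), 1.36 and 1.33 CPM (6 h) and 1.03 and 0.637 CPM (72 h). Its 72 h change of -1.32 (SE 0.39, adjusted p = 0.00514) ended with TMM from shared peaks (-0.35, adjusted p = 0.446), with total counts (-0.81, adjusted p = 0.0746) and without replicate 2 at 72 h (-1.005, adjusted p = 0.0998). The IL4I1 start, which ATF5 and NUP62 share (peak85167, chr19:49928404-49930804), had 69.2 and 65.3 CPM (0 h), 45.8 and 47.2 CPM (6 h) and 26.5 and 21.3 CPM (72 h). It was lower at 72 h by the test (-1.49, SE 0.15, adjusted p = 2.2e-08) but not with loess offsets (-0.15, adjusted p = 0.37).

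For members that the promoter table lacks, sites near either end of the gene were read, so start and end cannot be told apart there. IL17RA, the chain shared by receptors of the IL-17 family (peak108288, chr22:17084536-17085586), had 49.8 and 49 CPM (0 h), 43.1 and 35.1 CPM (6 h) and 20.3 and 22.2 CPM (72 h). At 72 h it had changed by -1.22 (SE 0.15, adjusted p = 5e-07), and with loess offsets by -0.0070 (adjusted p = 0.97). With TMM from shared peaks it was -0.25 (adjusted p = 0.131). IL17C (peak68361, chr16:88639584-88640197) had 6.96 and 7.89 CPM (0 h), 3.5 and 3.61 CPM (6 h) and 2.62 and 1.82 CPM (72 h), lower at both times, with -1.75 (SE 0.27, adjusted p = 6.2e-06) at 72 h. Sites just outside either end of IL17C went the other way at 6 h, with 0.96 (SE 0.26, adjusted p = 0.00541) at peak68360 and 0.76 (SE 0.26, adjusted p = 0.021) at peak68362. IL18, an IL-1 family ligand, had a weak site (peak36529, chr11:112163425-112163666) with 0.715 and 0.861 CPM (0 h), 0.767 and 0.854 CPM (6 h) and 0.0259 and 0.118 CPM (72 h) and a 72 h change of -3.35 (SE 0.70, adjusted p = 0.00023). A more open IL18 site (peak36530, chr11:112163828-112164455) had 4.88 and 6.5 CPM (0 h), 4.09 and 3.54 CPM (6 h) and 2.1 and 2.03 CPM (72 h). It changed by -1.47 (SE 0.27, adjusted p = 6.8e-05) at 72 h, and not by the test with TMM from shared peaks (-0.50, adjusted p = 0.109). IL27, which encodes a subunit of the cytokine IL-27 (peak64449, chr16:28507560-28507759), had 1.24 and 1.63 CPM (0 h), 1.19 and 1.01 CPM (6 h) and 0.155 and 0.401 CPM (72 h). By 72 h the change was -2.34 (SE 0.51, adjusted p = 0.00037).

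IL34 (peak66651, chr16:70579572-70580100) had 5.46 and 5.69 CPM (0 h), 3.92 and 2.82 CPM (6 h) and 1.94 and 2.12 CPM (72 h) and changed by -1.45 (SE 0.28, adjusted p = 9e-05) at 72 h, which ended with TMM from shared peaks (-0.49, adjusted p = 0.126). The IL31 site (peak45711, chr12:122174125-122174651), which LRRC43 also overlaps, had 0.975 and 0.861 CPM (0 h), 1.36 and 2.12 CPM (6 h) and 0.388 and 0.236 CPM (72 h). It fell from 6 to 72 h with a log2 change of -2.53 (SE 0.47, adjusted p = 0.00018). IL5, a growth factor of eosinophils, shares its site with RAD50 (peak135458, chr5:132556471-132557900), and that site had 62.5 and 70.1 CPM (0 h), 49.8 and 46.5 CPM (6 h) and 22.8 and 25.4 CPM (72 h). Its 72 h change of -1.46 (SE 0.14, adjusted p = 2e-08) was -0.11 with loess offsets (adjusted p = 0.449). A site near an end of IL31RA (peak132151, chr5:55923154-55924254) was higher at 72 h by 0.64 (SE 0.28, adjusted p = 0.0471), and those of IL22 and IL25 rose by more. IL22 (peak42355, chr12:68252059-68252758) had 0.455 and 0.526 CPM (0 h), 2.05 and 0.949 CPM (6 h) and 1.99 and 1.49 CPM (72 h) and a 72 h change of 1.80 (SE 0.48, adjusted p = 0.00228), which ended with loess offsets (1.02, adjusted p = 0.068). IL25 (peak50524, chr14:23375360-23375761) had 1.17 and 0.622 CPM (0 h), 1.62 and 1.49 CPM (6 h) and 1.81 and 1.72 CPM (72 h). Its 72 h change of 1.02 (SE 0.41, adjusted p = 0.0323) did not pass in 6 of the 13 alternatives, among them RLE factors (0.84, adjusted p = 0.0739) and DESeq2 (0.83, adjusted p = 0.184).

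Read over the start sites, AP-1 letters stood before 4 of the 11 early gained ones (IL9R, IL1A, IL1RN and IL11), 0 of the 4 late gained ones and 1 of the 18 that were lower at 72 h (IL15RA). GATA letters stood before 2 of the 11 (IL9R and IL26), 2 of the 4 (IL7R and IL1B) and 3 of the 18 (IL18RAP, IL18R1 and IL1R1). At IL1R1 the GATA match, and a RUNX match, stand before a listed start at 102142306. The lower IL1R1 site begins past that start, at 102142384, and the start it covers, at 102142746, has neither match. Over all 43 start sites AP-1 letters stood before 9 and GATA letters before 9, and among the 8 called in no comparison before 2 and 1. RUNX letters stood before 8 of the 43, of which 3 were early gained, 1 late gained and 2 lower at 72 h, and NF-kB letters before 3, of which 1 was early gained and 2 lower. These numbers are small and carry no test.

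The genes that act with these members but do not carry their names were counted in the same way. Over 32 such genes with 339 tested sites, of which 15 are also members' sites, 95 were higher (28.02%) and 53 lower (15.63%) at 6 h. At 72 h 129 were higher (38.05%) and 95 lower (28.02%), and 31 were late gained (9.145%). These are to be read against 23.4%, 16.8%, 38.2%, 29.2% and 12.7% of all tested sites. Shared receptor chains and related cytokines had 54 higher and 14 lower of 101 sites at 72 h, whereas STAT factors had 18 higher and 34 lower of 76. Janus kinases had 20 and 15 of 59, feedback inhibitors 13 and 14 of 35, and adaptors of IL-1 and IL-17 receptors 24 and 18 of 68. A site near LIF, a cytokine that signals through gp130 (peak110034, chr22:30250383-30251090), had 0.39 and 0.383 CPM (0 h), 9.04 and 12.7 CPM (6 h) and 5.05 and 4.74 CPM (72 h). It rose by 4.82 (SE 0.35, adjusted p = 1e-09) at 6 h. Within OSMR, the receptor chain for oncostatin M (peak131603, chr5:38853929-38854547), the level was 0.13 and 0.0956 CPM (0 h), 0.682 and 0.316 CPM (6 h) and 5.2 and 5 CPM (72 h). Here the change was 5.47 (SE 0.51, adjusted p = 9.8e-09) at 72 h. Within CSF2RB, the chain that pairs with IL3RA and IL5RA (peak110615, chr22:36925657-36926359), it was 0.13 and 0.574 CPM (0 h), 1.88 and 3.42 CPM (6 h) and 6.73 and 9.7 CPM (72 h). Here the change was 4.42 (SE 0.43, adjusted p = 1.7e-08). In the other direction, a site that overlaps both STAT5A and STAT3 (peak72284, chr17:42311439-42313331) had 126 and 162 CPM (0 h), 38 and 41.3 CPM (6 h) and 20.5 and 20.6 CPM (72 h). It changed by -1.86 (SE 0.15, adjusted p = 2.7e-09) at 6 h and -2.81 (SE 0.15, adjusted p = 3.2e-11) at 72 h.

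LIFR, the receptor chain for LIF, and CRLF2, a chain of the TSLP receptor that pairs with IL7R, also held large gains. The site within LIFR (peak131569, chr5:38601633-38602298) had 1.17 and 0.908 CPM (0 h), 15.3 and 12.5 CPM (6 h) and 8.93 and 7.41 CPM (72 h). It rose at 6 h by 3.75 (SE 0.29, adjusted p = 1.8e-09). The site near CRLF2 (peak176211, chrX:1222363-1223504), in the part shared by chromosomes X and Y, had 0 and 0.287 CPM (0 h), 1.88 and 2.6 CPM (6 h) and 6.71 and 6.7 CPM (72 h), and it changed by 3.78 (SE 0.56, adjusted p = 1.2e-05) at 6 h and 5.32 (SE 0.49, adjusted p = 8.4e-09) at 72 h. Losses were named at a further 3 genes. Within STAT3, the factor used by IL-6 and IL-10 receptors (peak72293, chr17:42368648-42369300), the level was 5.26 and 4.97 CPM (0 h), 1.11 and 1.3 CPM (6 h) and 3.11 and 2.48 CPM (72 h). It changed by -2.05 (SE 0.32, adjusted p = 2.6e-05) at 6 h. The site assigned to STAT2 (peak41718, chr12:56375997-56376571) is nearest to APOF and had 6.37 and 3.49 CPM (0 h), 1.36 and 0.759 CPM (6 h) and 0.673 and 0.189 CPM (72 h). Its 72 h change was -3.51 (SE 0.46, adjusted p = 9.9e-07). Within IRAK2, an adaptor of IL-1 receptor signalling (peak112725, chr3:10234727-10235392), the level was 9.62 and 8.41 CPM (0 h), 4.86 and 4.24 CPM (6 h) and 0.751 and 0.826 CPM (72 h), with -3.50 (SE 0.28, adjusted p = 1.5e-09) at 72 h.

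The counts differed, without a test, by where a site lay. Of the 555 sites nearest to a member, ties with other genes included, 29.01% were early gained, 13.69% late gained and 21.98% lower at 72 h. Of the 192 whose nearest gene was another, 19.27%, 5.73% and 46.35% were. Within members alone 102 of 328 sites were early gained and 42 late gained. Whether a site belongs to the gene it lies near was not tested.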

How the data were processed

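ATAC-seq of K562 cells was taken from 6 libraries, 2 each at 0, 6 and 72 h of PMA. The authors deposited 1 table with a whole-number read count per site and library, and with their own log2 fold changes, adjusted p-value and class name per site. Per the submitters' processing notes, Trim Galore 0.4.3, BWA 0.7.17, SAMtools 1.9, deepTools 3.0.1, MACS2, bedtools 2.26 and DESeq were used with hg38; how the site list was built and whether read ends were shifted for the transposase is not given in the sources used here. A peak list per library holds the authors' score, their fold enrichment over background (a ratio), and columns on a −log10 scale for the p-value and for the q-value, as deposited; only the positions of these peaks were used.

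Counts were fitted with edgeR 4.0.16 in R 4.3.3: TMM scaling, the default filter with a minimum of 10 counts (177759 sites left), and a quasi-likelihood model of the 3 times over all 6 libraries, with Benjamini-Hochberg adjustment over all tested sites and calls at 0.05. CPM values were computed here from the counts and the TMM-scaled library size. SE is the size of the log2 fold change over the square root of F. The fit was tested on simulated counts for 6 h against 0 h (173998 sites). It called 90 of 100 sites that differed 4-fold and 22 of 100 that differed 2-fold. In the simulation 173798 sites did not differ, whereas at 6 h 23.4% of all tested sites were called higher and 16.8% lower. Adjustment is stricter when few sites differ, so how often the fit finds such changes among the measured sites was not tested. Replicates differed by more than sampling noise (chi-square per degree of freedom 3.54 to 5.53). Ratios with few counts have exact binomial intervals; reads are not independent molecules, so these cover counting error only.

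Members, gene lists and tests were chosen with earlier results of these data known. Named sites are the 12 largest early and the 12 largest late gains by log2 fold change (at most 2 per gene, mean of at least 1 CPM), the 6 largest losses at each time, the 5 largest transient falls, the start sites with a change above 1, members with at least 10 sites by their counts, and the 3 largest changes each way of the other genes of the pathway (1 such site and 1 marker list are not reported here); start sites of IL6, IL9R, IL18BP and IL31RA and 2 at IL17C were named after their values were seen. The uncalled start sites of IL17RD and IL1R1 were likewise named after their values were seen. Starts came from the RefSeq promoter table, and for members it lacks, sites within 1000 bases of either gene end were read. Exons and introns were not told apart, as only gene intervals were used. The deposited class names were not used: among members' sites the authors' own 72 h log2 fold change was above 0 in 25 of the 30 classed downEarly and in 13 of the 20 classed upEarly. Alternatives covered scaling, DESeq2 1.42.0, the filter, each library left out, a replicate block, stricter calls and the reach of a gene.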

Additional observations from a re-analysis of the deposited data

How the results depend on the processing

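For the 74 named sites, 165 called comparisons were refitted under 13 alternatives each; of 2145 values 1990 kept direction and side of the threshold, 146 no longer passed and 9 reversed. The reversals, none of which passed, all came from TMM from shared peaks or loess offsets. With TMM from shared peaks, 72 h against 0 h became 0.033 at IL22RA2 peak147944, 0.036 at IL15RA peak20916 and 0.31 at IL1R1 peak92879, and 72 h against 6 h became 0.21 at IL10RB peak106494. With loess offsets, 72 h against 0 h became 0.15 at IL15RA peak20916 and 0.24 at IL6ST peak132157, and 72 h against 6 h became 0.22 at IL10RB peak106494, 0.025 at IL17RA peak108288 and 0.016 at IL4I1 peak85167. The cause was not tested.

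Counts of members' sites moved by over 1.5 times as follows. With TMM from shared peaks, 65 were lower at 6 h, 76 lower at 72 h, 339 higher and 48 lower at 72 h against 6 h, and 153 gained late. Total counts gave 244 higher and 93 lower, and loess offsets 99 lower, at 72 h against 6 h. With an adjusted p under 0.01 and a log2 change above 1, 48 were lower at 6 h and 70 lower at 72 h against 6 h. Within gene bodies only, fewer sites enter, with 102 and 44 higher and lower at 6 h, 152 and 78 at 72 h, 79 and 68 at 72 h against 6 h and 42 gained late; a reach of 50 kb gave 185 lower at 6 h, 360 lower at 72 h and 286 lower at 72 h against 6 h. Sites whose nearest gene is a member gave 66, 122 and 100 lower. Leaving out each library in turn gave 149 to 192 higher and 93 to 129 lower at 6 h, 251 to 306 and 172 to 215 at 72 h, 107 to 188 and 92 to 186 at 72 h against 6 h, and 58 to 100 gained late. For 72 h against 6 h, 107 were higher without replicate 2 at 72 h, and the lower count was 110 without replicate 2 at 6 h, 92 without replicate 1 at 72 h and 96 without replicate 2 at 72 h; an arm with 1 library is assumed to vary like the others.

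With the replicate block, 204 sites were higher and 127 lower at 6 h, 299 and 213 at 72 h, 171 and 180 at 72 h against 6 h, and 86 gained late, and all 165 named calls kept their side. Same-numbered libraries correlated by 0.131, 0.0762 and 0.118 in their deviations, and not all passed 0.1. No label names a shared culture or day, though the file headers repeat a code for each number across times, so the pairing is not established and the fit without the block was kept. At this depth 10 of the 757 sites were too low to test.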

Other observations

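The class names in the authors' deposited table and the fold changes in the same table did not go together over all sites either. The median of the authors' 72 h log2 fold change was 2.257 over the 8943 sites classed downEarly, 2.261 over the 5431 classed upEarly, 2.277 over the 21243 classed upLate and 2.296 over the 1992 classed downLate, with 69.48% of the downEarly sites above 0. Among members, 600 sites were classed static, 99 upLate, 30 downEarly, 20 upEarly and 8 downLate. The start site of IL17RB, which fell at both times, was classed upEarly.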
